A study of Columba livia with 18 samples.

Results

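The RNF and TRIM gene models of the pigeon (Columba livia) were examined in auditory hair cells with and without cuticulosomes. A gene model was taken as a member if the gene symbol in its annotation was RNF or TRIM followed by a number, and 6 gene models of RNF128 and its relatives RNF13, RNF130, RNF149, RNF150 and RNF167 were set aside. This gave 111 of 20918 gene models, 66 of the RNF kind with 57 different symbols and 45 of the TRIM kind with 35 different symbols. The rule itself uses no expression value. The cuticulosome is an organelle rich in iron that avian hair cells hold beneath their stereocilia, in the actin mesh called the cuticular plate.

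The cells came from the basilar papilla of 9 birds aged 1 year, whose genotype and treatment the labels do not give. Each bird contributed 1 pool of 30 hair cells in which cuticulosomes were seen by light microscopy and 1 pool of 30 hair cells in which none were seen, picked by micropipette after light trypsinization, which gave 18 libraries. The birds, numbered 433 to 435, 450, 451, 458 and 513 to 515 in the labels, fall into 3 sequencing runs of 3 birds, and both pools of a bird were sequenced in the same run. The values are FPKM, which scale the reads of a gene by its length and by the total of the library, so the levels of different genes are given per length, and a gene model was called expressed at a mean FPKM above 1 over the 18 libraries.

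RNF stands for ring finger and TRIM for tripartite motif. Most of these proteins are E3 ubiquitin ligases: through a zinc-binding RING domain they bring a ubiquitin-loaded E2 enzyme to a substrate, and the chain of ubiquitin that results can send the substrate to the proteasome, to the lysosome or to a signalling complex. A TRIM protein carries the RING, 1 or more B-box zinc fingers and a coiled coil, followed by a variable end such as the PRY-SPRY or NHL repeat region that selects the substrate. In hair cells, as in other cells that do not divide, ubiquitin ligases take part in the turnover of proteins, in vesicle traffic and in the response to cell stress.

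The picked cells carried the markers of hair cells. Otoferlin (OTOF, CLIV_019819), the calcium sensor of the hair cell synapse, lay between 150.8 and 1947 FPKM, and TMC2, of the mechanotransduction channel, between 98.6 and 1632 FPKM. Markers of supporting cells were present too: GFAP and SOX2 had a mean FPKM of 0.021 and 0.66, but TECTB had 399.7, the 2 gene models of GJB6 306.7 and 48.9, COCH 164.2 and 1 of the 3 gene models of TECTA 21.0. The libraries with cuticulosomes held between 9966 and 16008 gene models above 0 and those without between 8855 and 13221, and in 8 of 9 birds the pool with cuticulosomes had more (p = 0.0156 in an exact permutation test that flips the signs of the 9 paired differences, two-sided). Gene models above 1 FPKM were more numerous with cuticulosomes in 6 of 9 birds (exact permutation p = 0.109). Both libraries of bird 435 stood apart: with cuticulosomes it had the most gene models above 0, the lowest summed FPKM of the 16 hair cell marker gene models (524, against a median of 4850 in its group) and the highest of the 18 supporting cell marker gene models (3671, against a median of 926), and without cuticulosomes its red blood cell markers summed to 37323 FPKM against a median of 943. The library of bird 450 with cuticulosomes was second lowest in hair cell markers, at 1002 FPKM, and its library without was the lowest of its group, at 1779 against a median of 4506. The sums of hair cell, supporting cell and red blood cell markers did not pass the test between the cell types (exact sign-flip permutation test over 9 birds, p = 0.199, 0.258 and 0.359). In pools of cells, fewer cells of a type and less RNA per cell cannot be told apart.

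Of the 111 gene models, 66 (59.5%) were expressed, against 54.5% of all gene models. The families differed in this, as counts with no test: 47 of 66 RNF gene models (71.2%) and 19 of 45 TRIM gene models (42.2%) were expressed. Among expressed gene models the median of the mean FPKM was 10.97 for RNF and 7.04 for TRIM, against 9.84 for all expressed gene models. A mean above 10 FPKM was reached by 33 members, 25 RNF and 8 TRIM, and a mean above 50 by 4 members, which were all RNF. The summed FPKM of the 111 members ranged from 618 to 1292 with a median of 987 in hair cells with cuticulosomes, and from 758 to 1418 with a median of 1047 in hair cells without. Thus the whole group took between 0.0784% and 0.254% of the FPKM of a library.

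The domains listed in the annotation can be set beside this. A RING domain was listed for 37 RNF gene models, of which 30 (81.1%) were expressed, and the IBR domain of the RING-between-RING ligases for 7, of which 5 were expressed. Among TRIM gene models a RING was listed for 17, of which 11 (64.7%) were expressed, a B-box for 26, of which 12 (46.2%) were expressed, and a SPRY domain for 16, of which 5 (31.2%) were expressed. By contrast, NHL repeats, which bind RNA or protein, were listed for 4 TRIM gene models and 3 of these were expressed. The fibronectin type III domain, found in TRIM proteins that bind microtubules, was listed for 3, none of which was expressed. No domain was listed for 18 RNF and 5 TRIM gene models. These are counts of gene models in a draft annotation, in which 17 symbols had more than 1 gene model, 36 gene models in all.

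The group was led by 4 RNF gene models. RNF34 (CLIV_001843, scaffold 20), which ubiquitinates initiator caspases, had a mean of 98.3 FPKM, the highest of the members. It ranged from 14.5 to 172 FPKM with a median of 92.2 in hair cells with cuticulosomes, and from 37.4 to 178 with a median of 111 in those without. RNF20 (CLIV_019693, scaffold 840), which attaches a single ubiquitin to a histone of the nucleosome, followed with a mean of 85.8 FPKM. Its levels ran from 34.5 to 126 (median 76.5) with cuticulosomes and from 57.8 to 114 (median 98.2) without, and its coefficient of variation of 30.1% over the 18 libraries was the lowest of the 24 members that were above 0 in every library. RNF114 (CLIV_007503, scaffold 100), a zinc finger ligase linked to innate immune signalling in human cells, had a mean of 75.5 FPKM, with 9.39 to 103 (median 84.4) with cuticulosomes and 26.1 to 133 (median 81.3) without. RNF185 (CLIV_008844, scaffold 143), a ligase of the endoplasmic reticulum that serves the degradation of misfolded proteins, had a mean of 72.6 FPKM. The ranges of these 4 genes overlapped widely, so their order by mean is no more than a description.

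Next in level came TRIM8 (CLIV_010414, scaffold 314), a regulator of cytokine signalling and the most abundant TRIM gene model, with a mean of 43.3 FPKM. RNF224 (CLIV_014006) had a mean of 42.4 FPKM and ranged from 2.03 to 99.2 FPKM over the 18 libraries. TRIM36 (CLIV_010919, scaffold 172), a microtubule-binding TRIM protein, had a mean of 40.0 FPKM. It was the one expressed gene model of 9 in its list, which holds only genes named TRIM. The muscle proteins TRIM54, TRIM55 and TRIM63 and the brain proteins TRIM9, TRIM46 and TRIM67 belong to this list. MID1 and MID2, which the symbol rule leaves out, were expressed, MID1 at means of 7.71 and 8.26 FPKM and MID2 at 10.02. The list therefore does not describe all microtubule-binding ligases of this kind. The spliceosome protein RNF113A had a mean of 38.4 FPKM and RNF219, a partner of the mRNA deadenylase complex, of 34.8 FPKM. RNF146, which recognizes poly-ADP-ribosylated proteins such as axin, had a mean of 32.9 FPKM but was listed at 0 in 1 library of each cell type. The endoplasmic reticulum ligase RNF103 and RNF141 followed with means of 28.5 and 28.3 FPKM, and the RING-between-RING ligase RNF19A with 27.3 FPKM. These 9 members were by their means well above the limit for expression, in pools of both kinds.

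**Figure D1:**
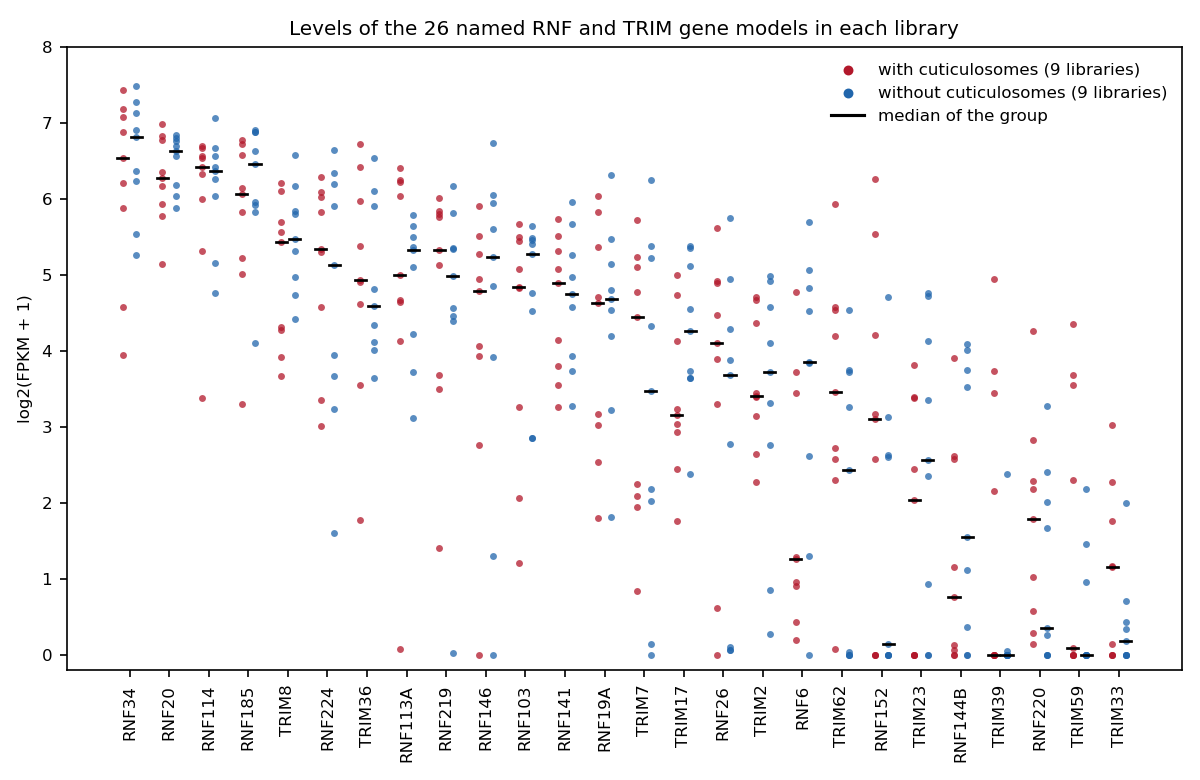
Levels of the 26 named RNF and TRIM gene models as log2(FPKM + 1), ordered by mean FPKM, with 1 point per library (9 with and 9 without cuticulosomes) and the group median as a black bar. The points of both cell types overlap for every gene model, and many of the gene models at the right are listed at 0 in several libraries.

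Some models of the same protein complex or pair lay far apart. RNF20 works as a dimer with RNF40, whose only gene model (CLIV_021428, scaffold 2263) was listed at 0 in all 18 libraries. RNF2 (CLIV_013495) is the catalytic subunit of Polycomb repressive complex 1. Its levels ranged from 0 to 37.6 FPKM (median 7.20) with cuticulosomes, and from 0 to 50.9 (median 0.735) without. The means of RNF2 lay closer together than these medians, at 12.5 FPKM with and 11.6 without. It was higher with cuticulosomes in 7 birds and lower in 1. The difference of log2(FPKM + 1), with minus without, was 0.51 and passed neither test (limma p = 0.3145, exact permutation p = 0.148). RNF168 (CLIV_006587), which ubiquitinates histones at DNA breaks, had a mean of 24.3 FPKM, while RNF169, a reader of that mark, had a mean of 0.184 FPKM. Among the transcriptional cofactors with a PHD finger and a bromodomain, TRIM24 had a mean of 10.3 FPKM, TRIM33 of 1.13 FPKM and TRIM66 of 0.0124 FPKM. TRIM28, the corepressor of zinc finger proteins, had 1 gene model at a mean of 6.39 FPKM and a second on the same scaffold at 0.433 FPKM. A value of 0 is given as listed at 0, with no statement on the gene. None of 60 gene models of ribosomal proteins with a mean FPKM above 100 was listed at 0 in any library. These were picked by their high level, so they do not describe zeros at the levels of most members. Of expressed gene models, 54.7% of all and 63.6% of the members were listed at 0 in at least 1 library.

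At the low end, 11 of 111 gene models (9.91%) were listed at 0 in all 18 libraries, against 14.8% of all gene models. They were RNF40, RNF222 and the meiotic RNF212, and 8 TRIM gene models: TRIM42, TRIM50, TRIM54, TRIM63 and 1 gene model each of TRIM9, TRIM11, TRIM21 and TRIM39. On 3 scaffolds the PRY-SPRY neighbours of such gene models were also low, and on scaffold 281 the neighbour of TRIM50, TRIM39 (CLIV_014462), had a mean of 3.31 FPKM. TRIM11, TRIM21 and TRIM7 on scaffold 679 had means of 0.149, 0 and 0.250 FPKM, TRIM39 and TRIM41 on scaffold 1679 of 0 and 0.0482, and TRIM11 and TRIM15 on scaffold 2451 of 0 and 0.0058. The members of this class are alike in sequence, and how reads from near copies were assigned was not tested, so the values of single members are uncertain.

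Detection of the low members was uneven between libraries. Of the 45 members with a mean FPKM of 1 or less, 29 were above 0 in the library of bird 435 with cuticulosomes and 14 in the library of the same bird without, against 3 to 8 in each of the other 16 libraries. Above 1 FPKM there were 0 to 6 of them in a library, with more in the pool with cuticulosomes in 6 birds, fewer in 1 and equal numbers in 2. Among the 66 expressed members, only 2 had their highest value in the library of bird 435 with cuticulosomes, namely RNF103 and RNF152. Over all 111 members the number above 0 was higher with cuticulosomes in 6 of 9 birds, with a median of 61 against 55. The number above 1 was higher with cuticulosomes in 8 of 9 birds, with a median of 50 against 45. Counts over all gene models leaned the same way. Those above 0 were more numerous with cuticulosomes in 8 of 9 birds (median 10833 against 9878). Those above 1 were more numerous in 6 of 9 birds (median 8754 against 8341), so this lean is not particular to the members. The marker sums of bird 435 given above moved with its number of low members above 0, and their part in it was not tested.

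**Figure D2:**
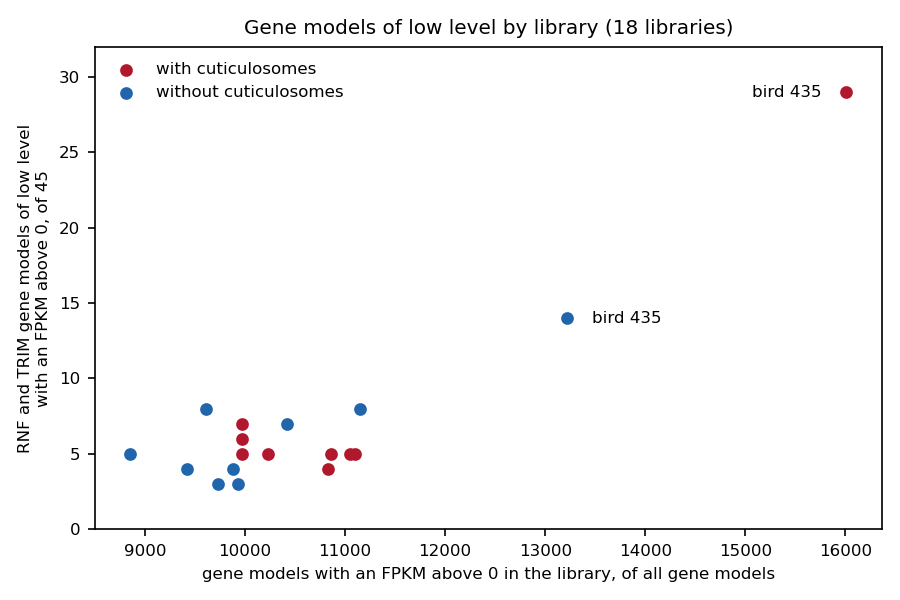
For each of the 18 libraries, the number of the 45 RNF and TRIM gene models of low level (mean FPKM of 1 or less) that were above 0, against the number of all 20918 gene models above 0 in that library. The library of bird 435 with cuticulosomes lies at 29 gene models and 16008 in all, its other library at 14, and the other 16 libraries between 3 and 8.

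The design asks whether the level of a gene differs between the 2 pools of a bird. Of the 66 members tested, none passed an adjusted p of 0.05 in limma with Benjamini-Hochberg adjustment over 11393 gene models, and none of all gene models did either (0%), the smallest adjusted p over all of them being 0.902. The study tested read counts with DESeq2, also blocked by bird, and reported genes under an adjusted p of 0.05, RNF128 among them. For RNF128 it also reported a difference by qPCR in 8 birds. Limma on log2(FPKM + 1) is another measure, and read counts were not analysed here, so this result does not contradict that of the study. At an unadjusted p under 0.05, 2 of 66 members (3.03%) differed, 1 in each direction, against 601 of 11393 gene models (5.28%), of which 3.27% were higher and 2.01% lower with cuticulosomes. The exact sign-flip permutation test over 9 birds, whose smallest possible p is 0.00391, gave a p under 0.05 for another 2 of the 66 members (3.03%), TRIM8 and TRIM33, against 4.78% of all gene models. Thus the members were called no more often than the background. Both of these exact calls were lost without bird 435, where the exact permutation p over 8 birds was 0.0781 for TRIM8 and 0.0938 for TRIM33. Of the 66, 9 had a mean FPKM above 1 in 1 cell type only, 7 with and 2 without cuticulosomes, so that these passed the limit for testing through the group in which they were high. TRIM33, TRIM39 and TRIM59 are among the 7. The limma call of TRIM39 and the exact call of TRIM33 are therefore a description and no support for a difference. The fold change was above 0 in 34 of 66 members (51.5%), against 53.9% of all gene models, and the median log2 fold change of the members was 0.01, against 0.05 for all. The RNF gene models had a median of −0.04 with 22 of 47 above 0, and the TRIM gene models of 0.03 with 12 of 19 above 0. Fold changes here and below are differences of log2(FPKM + 1), with minus without cuticulosomes, which understates the change of genes of low level.

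No member was higher in all 9 birds (0.167% of all gene models were) or lower in all 9 birds (0.14% of all). In 8 or 9 birds, 0 members were higher (1.76% of all gene models) and 1 member, RNF185, was lower (1.3% of all). The values of the 2 cell types overlapped for every member, as they did for all 11393 gene models tested (0%).

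The precision of these comparisons was limited. The standard error of the log2 fold change had a median of 0.54 and ranged from 0.23 to 0.83 over the members, close to the median of 0.50 over all gene models. For 10 of 66 members the 95% interval lay within a 2-fold change in either direction (21.1% of all gene models had such an interval), and for 53 within a 4-fold change. These intervals are of FPKM + 1, which understates the change of members of low level. For most members the interval thus did not exclude a change past 2-fold in at least 1 direction. A p above the threshold therefore does not show that the pools were alike. The 24 members above 0 in every library had a median standard error of 0.45, and all 24 intervals lay within a 4-fold change. By contrast, the 42 members listed at 0 in at least 1 library had a median standard error of 0.57, and 29 intervals lay within a 4-fold change.

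**Figure D3:**
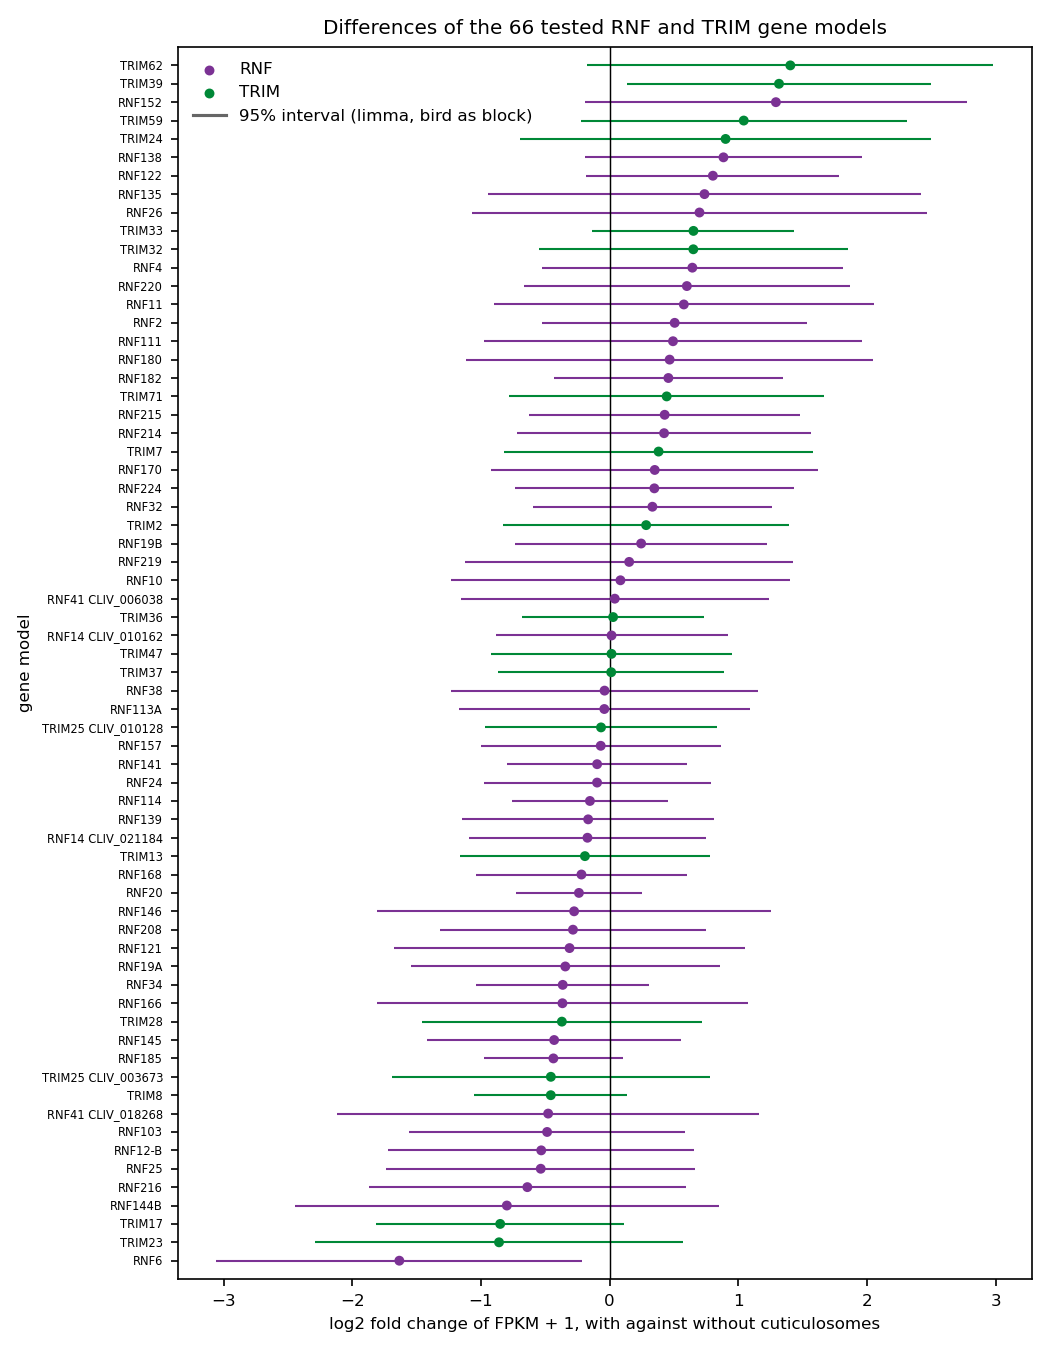
Log2 fold change of FPKM + 1, with against without cuticulosomes, for the 66 tested RNF (purple) and TRIM (green) gene models, with the 95% interval from limma with the bird as block. Fold changes run from −1.63 (RNF6) to 1.404 (TRIM62), and only the intervals of RNF6 and TRIM39 exclude 0. TRIM39 was tested only because of the group in which it was high.

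RNF6 (CLIV_005034, scaffold 59), which in mouse neurons marks the actin regulator LIMK1 for degradation in growth cones, had the most negative fold change of the members. It ranged from 0.151 to 26.5 FPKM with a median of 1.402 in hair cells with cuticulosomes, and from 0 to 50.7 with a median of 13.5 in hair cells without. Bird 458 had 0.941 FPKM with and 50.7 without, and bird 434 had 0.884 with and 22.0 without, whereas bird 435 had 12.2 with and 5.15 without and bird 450 had 0.356 with and 0 without. Therefore 7 of 9 birds were lower with cuticulosomes, with a log2 fold change of −1.63 (95% interval −3.06 to −0.21). The p was 0.0268 unadjusted and 0.902 after Benjamini-Hochberg adjustment in limma, and the exact permutation test over 9 birds gave p = 0.0859. Leaving out 1 bird at a time gave fold changes from −1.98 to −1.25, and the unadjusted p of limma stayed under 0.05 in 5 of the 9 fits. Without bird 435 the fold change was −1.98 (exact permutation p = 0.0469 over 8 birds). All 3 sequencing runs had a negative mean difference, of −0.97, −2.64 and −1.29.

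TRIM39 (CLIV_014462, scaffold 281), a ligase with roles in apoptosis and the cell cycle in human cells, was the one member higher with cuticulosomes at an unadjusted p under 0.05. Hair cells with cuticulosomes were above 0 in 4 birds, at 9.86 FPKM in bird 434, 3.48 in bird 435, 12.3 in bird 450 and 29.8 in bird 515. Hair cells without were above 0 in 2 birds, at 4.22 FPKM in bird 450 and 0.0373 in bird 513. The other libraries were listed at 0, so that 4 birds were higher, 1 lower and 4 equal. With means of 6.16 FPKM with and 0.473 without, TRIM39 was tested only because of the group in which it was high, so its call is given as a description. The log2 fold change was 1.32 (95% interval 0.14 to 2.49; limma p = 0.0308, adjusted p = 0.902; exact permutation p = 0.125 over 9 birds). The fold change without bird 435 was 1.21 (exact permutation p = 0.25 over 8 birds), where the call of limma was lost, and the range over the birds left out was 0.86 to 1.49, with an unadjusted p of limma under 0.05 in 6 of 9 fits. The call thus rested on 4 libraries, of which those of birds 435 and 450 stood apart in their markers. It was also lost without bird 434 and without bird 515, and it was kept without bird 450.

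In the higher direction, 4 further members came next without passing the test. TRIM62 (CLIV_012929, scaffold 869), which is needed for the polarity of mammary epithelium in human cell culture, had the largest fold change of the members. It ranged from 0.058 to 59.9 FPKM with a median of 10.01 in hair cells with cuticulosomes and from 0 to 22.3 with a median of 4.43 in those without, where 3 libraries were listed at 0. The log2 fold change was 1.404 (SE 0.74; limma p = 0.0774; exact permutation p = 0.145), and 6 of 9 birds were higher. RNF152 (CLIV_017261, scaffold 67), a lysosomal ligase that dampens mTOR signalling, ranged from 0 to 75.6 FPKM (median 7.57) with cuticulosomes and from 0 to 25.2 (median 0.106) without. It was higher in 6 birds and lower in 1, with a log2 fold change of 1.29 (limma p = 0.0837; exact permutation p = 0.141), and its highest value in each cell type came from bird 435. Leaving out bird 435 gave 1.26, leaving out bird 450 gave 0.76 and leaving out both gave 0.65. TRIM59 (CLIV_011336, scaffold 258), a membrane-anchored ligase, had a mean of 2.91 FPKM and a log2 fold change of 1.04, and was higher in 5 birds and lower in 2. TRIM33 (CLIV_004439, scaffold 454), a cofactor of SMAD proteins, was low, with a range of 0 to 7.17 FPKM (median 1.24) with cuticulosomes and 0 to 3.01 (median 0.141) without. It was higher in 6 birds and lower in 1, with a log2 fold change of 0.65 (limma p = 0.0976; exact permutation p = 0.0469). TRIM59, with means of 5.12 FPKM with and 0.696 without, and TRIM33, with 1.78 and 0.49, were also tested only because of the group in which they were high, and their values are a description.

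RNF122 (CLIV_008498, scaffold 497), a membrane ligase of the endoplasmic reticulum and Golgi, is named after its values were seen, because it was the expressed member listed at 0 in all 9 libraries without cuticulosomes. With cuticulosomes it was above 0 in 4 birds, at 20.4 FPKM in bird 513, 4.23 in bird 435 and 0.17 and 0.138 in birds 433 and 434. No test and no fold are given for a gene chosen in this way.

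In the lower direction, 4 members stood next to RNF6, and 3 of them were abundant. RNF185 had 8.90 to 109 FPKM (median 65.8) with cuticulosomes and 16.2 to 119 (median 87.1) without. It was lower in 8 of 9 birds, the exception being bird 514 at 109 with and 59.8 without, and its log2 fold change was −0.44 (95% interval −0.97 to 0.10; limma p = 0.104; exact permutation p = 0.0625). TRIM8 had 11.7 to 73.2 FPKM (median 42.2) with and 20.4 to 94.2 (median 43.3) without cuticulosomes. It was lower in 7 of 9 birds, with a log2 fold change of −0.46 (95% interval −1.05 to 0.14; limma p = 0.122; exact permutation p = 0.0391). TRIM17 (CLIV_000901, scaffold 79), which in mouse neurons promotes apoptosis, had 2.40 to 30.9 FPKM (median 7.91) with and 4.19 to 40.6 (median 18.2) without. It was lower in 6 of 9 birds, with a log2 fold change of −0.85 (95% interval −1.82 to 0.11; limma p = 0.0801; exact permutation p = 0.0977). Without bird 435 this became −1.04 (exact permutation p = 0.0703 over 8 birds), and the unadjusted p of limma fell under 0.05. That was the case in only 1 of the 9 fits that left out 1 bird, whose fold changes ran from −1.04 to −0.62. The mean difference of TRIM17 was 0.51 in run 1, −1.2 in run 2 and −1.9 in run 3. For TRIM23, a TRIM protein with an ARF-type GTPase domain, the levels were 0 to 13.0 FPKM (median 3.11) with and 0 to 26.1 (median 4.91) without, and it was lower in 6 and higher in 2 birds (log2 fold change −0.86, exact permutation p = 0.266). In RNF185 and TRIM8 the difference between birds was larger than that between the pools of a bird: bird 450 was the lowest of its group for both genes and both cell types. Both libraries of bird 450 also stood apart as a whole. They had the highest total FPKM of their groups and the lowest share of it in the members, 0.0784% with and 0.116% without cuticulosomes. The part of this in the low values of RNF185 and TRIM8 was not tested.

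**Figure D4:**
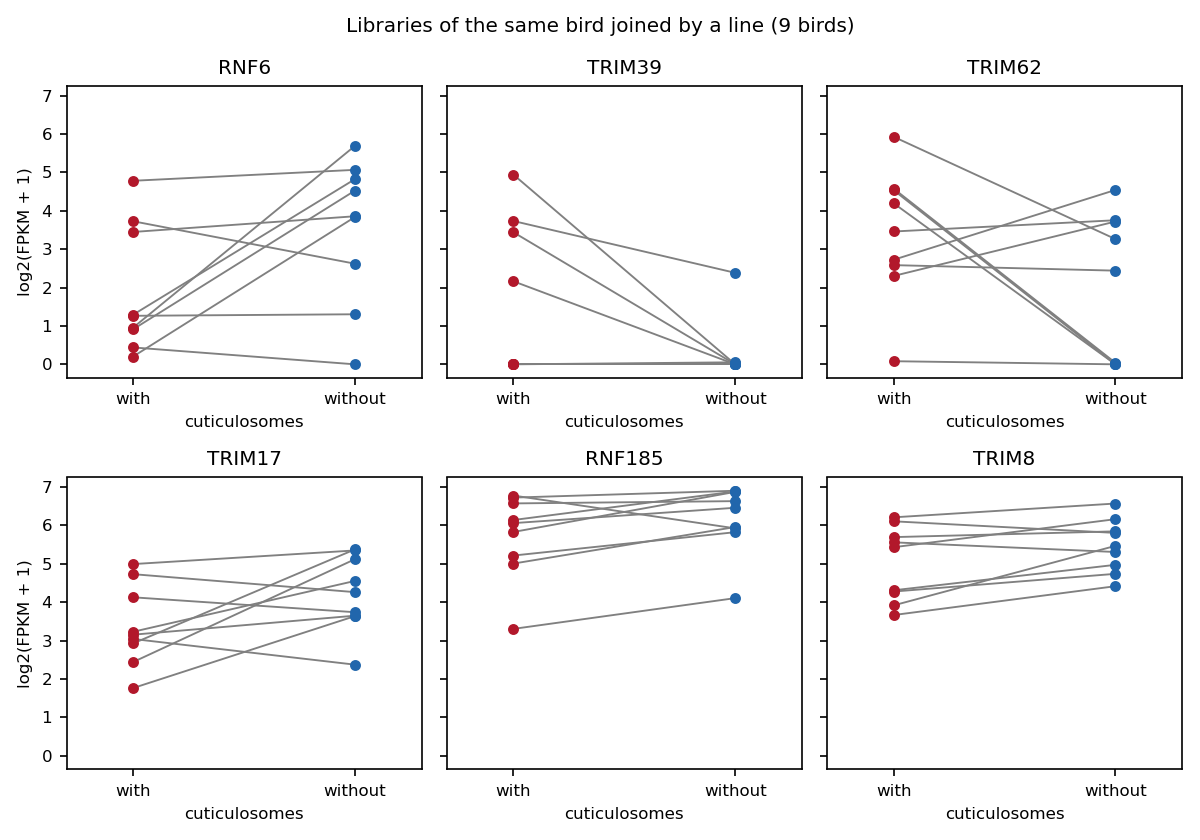
Levels of 6 gene models as log2(FPKM + 1), with the 2 libraries of each of the 9 birds joined by a line. For RNF185 the line rises towards the pool without cuticulosomes in 8 of 9 birds, for RNF6 and TRIM8 in 7 of 9 and for TRIM17 in 6 of 9, whereas TRIM39 and TRIM62 fall in 4 and 6 birds.

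By role, the members were divided into lists, some of which share genes. The RING-between-RING ligases, which pass ubiquitin through their own cysteine, had 6 of 8 gene models tested, none with p under 0.05, and a median log2 fold change of −0.26. RNF14 (CLIV_010162), RNF216 and RNF144B belong to them, with means of 12.7, 5.42 and 4.65 FPKM. The ligases of chromatin and DNA damage had 10 of 15 tested, none called and 7 positive, with a median of 0.50. RNF138, which acts in DNA end resection, was higher in 7 of 9 birds at 4.87 to 39.6 FPKM (median 11.6) with and 0.63 to 31.1 (median 6.75) without cuticulosomes (log2 fold change 0.88, exact permutation p = 0.113). RNF4, the ligase of SUMO-tagged proteins, was also higher in 7 of 9 birds, with a median of 22.5 FPKM with and 3.16 without cuticulosomes (log2 fold change 0.64, exact permutation p = 0.316). The means of RNF4 lay closer together, at 17.4 FPKM with and 13.0 without. RNF20, of the same list, was lower in 6 of 9 birds (log2 fold change −0.24, 95% interval −0.73 to 0.25, exact permutation p = 0.23), so the list did not move as one.

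Ligases of organelle membranes, mostly of the endoplasmic reticulum and Golgi, had 15 of 19 gene models tested, none called, and a median log2 fold change of 0.35. RNF103 had a log2 fold change of −0.49, which became −0.10 without bird 515, and RNF145, which acts on sterol synthesis, of −0.43. RNF170, known for the breakdown of the inositol trisphosphate receptor, had 0 to 15.02 FPKM over the libraries and a log2 fold change of 0.35. The ligases of endosomes, traffic and cullin-type partners had 6 of 7 tested, none called, and a median of −0.22, with RNF34 at −0.36 (95% interval −1.04 to 0.31), lower in 5 of 9 birds, which became −0.19 without bird 435 and −0.026 without birds 435 and 450. RNF41, which controls receptor turnover, had 2 expressed gene models on different scaffolds, with log2 fold changes of 0.04 and −0.48. RNF11, a partner of HECT ligases, had 0 to 21.3 FPKM with and 0 to 17.9 without cuticulosomes.

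Among TRIM proteins of the NHL class, 3 of 4 gene models were tested, none was called and all 3 had a positive fold change, with a median of 0.44. TRIM2 (scaffold 86), which binds neurofilament light chain in mouse, had 3.86 to 25.3 FPKM (median 9.60) with and 0.206 to 30.8 (median 12.2) without cuticulosomes (log2 fold change 0.28, exact permutation p = 0.606). TRIM32, mutated in a muscular dystrophy, had a median of 6.83 FPKM with and 0.328 without (log2 fold change 0.65, exact permutation p = 0.242). Its means lay closer together, at 9.74 FPKM with and 7.70 without. The PRY-SPRY class had 7 of 22 gene models tested, 1 called (14.3%, against 5.28% of all gene models), the TRIM39 gene model that was tested only because of its high group, and a median of 0.01. TRIM7 (CLIV_020719), which binds glycogenin, was the most abundant of the class with a mean of 20.4 FPKM and a log2 fold change of 0.38 (exact permutation p = 0.543). Its means, at 19.99 FPKM with and 20.85 without cuticulosomes, did not share the sign of the fold change. The ligases of innate immune signalling had 5 of 8 tested, none called and 1 positive, with a median of −0.15. TRIM25, which activates the RNA sensor RIG-I in mammals, had 2 expressed gene models with means of 3.54 and 2.50 FPKM, and RNF213, linked to moyamoya disease, had 3 gene models that were all below a mean of 1 FPKM. The remaining 14 tested members without a list had 1 call, RNF6 (7.14%, against 5.28% of all gene models), and a median of −0.04.

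The other ubiquitin ligases were counted in the same fit. HECT ligases, which like the RING-between-RING ligases carry ubiquitin on a cysteine, had 29 of 36 gene models tested, none with p under 0.05, and a median log2 fold change of 0.16. Of other RING ligases 71 of 90 were tested, 2 were higher and 3 lower at an unadjusted p under 0.05 (7.04% in all, against 5.28% of all gene models, of which 3.27% were higher and 2.01% lower), and the median was −0.03. The higher ones were TRAF3 (1.74) and PCGF5 (1.21) and the lower ones TRAF6 (−1.74), PEX10 (−1.65) and MKRN2 (−0.91), given as log2 fold changes. The list of RNF128 and its relatives had 5 gene models tested, of which 1 was lower, RNF128 itself (20%, against 5.28% of all gene models). This list was built around RNF128, which the study had reported as lower in these same libraries, so its share is a description only. None of the ligases named in this paragraph passed the adjusted p in limma. The hair cell markers had 12 of 16 gene models tested, none called, and a median of −0.35, and the supporting cell markers 13 of 18, with HES1 higher at an unadjusted p under 0.05 (log2 fold change 1.90), and a median of 0.21.

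The sequencing runs offered a check within each batch, as every run holds both pools of 3 birds. The difference between the cell types varied with the run at an unadjusted p under 0.05 in 3 of 66 members, RNF26, RNF144B and RNF220 (limma interaction test), or 4.55%, against 4.55% of all gene models, and none passed the adjusted p (0% of all gene models did), which was 0.994 for all 3. RNF26 (CLIV_006858, scaffold 77), a ligase of the endoplasmic reticulum that holds endosomes near the nucleus, had the smallest p, 0.000299. An exact permutation of the 9 birds among the runs gave p = 0.00357, the smallest that it can give. This permutation was run only for the 3 members picked by their interaction p and on the same differences, so it is no separate support. In run 1 RNF26 had 16.3, 48.1 and 28.8 FPKM with and 11.8, 13.8 and 18.6 without cuticulosomes. In run 2 the order was the opposite, with 0.541, 0 and 21.2 with and 5.82, 29.7 and 52.8 without. In run 3 the pools with cuticulosomes had 29.3, 8.84 and 13.9 FPKM, and those without had 0.0467, 0.0495 and 0.0765. Every bird of runs 1 and 3 was thus higher and every bird of run 2 lower with cuticulosomes. The mean differences on the log2 scale were 0.92, −2.79 and 3.96 in runs 1 to 3. The fold change over all birds was 0.70 (exact permutation p = 0.512). It lay near the mean of run 1 and far from the means of runs 2 and 3.

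RNF144B (CLIV_014775, scaffold 196), a RING-between-RING ligase induced by p53 in human cells, had mean differences of 0.19, 1.09 and −3.67 in runs 1 to 3 (limma interaction p = 0.0168; exact permutation of birds among runs, p = 0.0571). In run 3 the pools with cuticulosomes had 0.703, 0.0474 and 0 FPKM and those without 16.1, 15.1 and 12.5 FPKM. All 3 birds of that run were lower, while runs 1 and 2 each held birds of both directions. For RNF220 (CLIV_002994, scaffold 87), which acts in Wnt and hedgehog signalling, the mean differences were 1.63, 1.57 and −1.40 (limma interaction p = 0.0492; exact permutation of birds among runs, p = 0.0821). All 6 birds of runs 1 and 2 were higher with cuticulosomes, and in run 3 only bird 515 was, at 0.49 against 0.199 FPKM. A run holds 3 birds, so that a difference between runs and one between sets of 3 birds cannot be told apart.

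**Figure D5:**
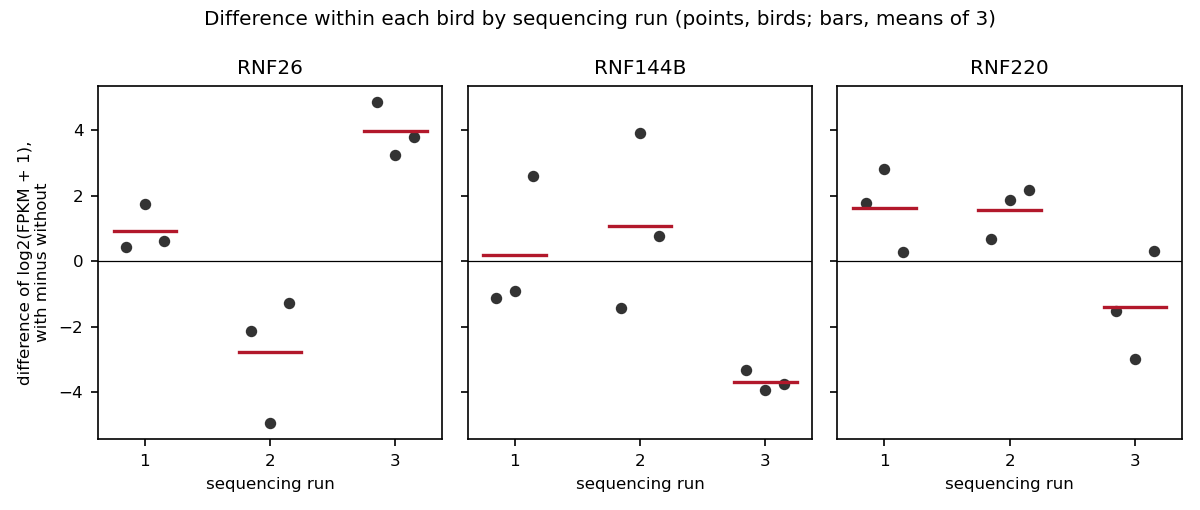
Difference of log2(FPKM + 1), with minus without cuticulosomes, within each of the 9 birds by sequencing run, for RNF26, RNF144B and RNF220 (points, birds; bars, means of 3 birds). RNF26 has means of 0.92, −2.79 and 3.96, RNF144B a mean of −3.67 in run 3, and RNF220 is above 0 in all 6 birds of runs 1 and 2.

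Levels of some members also differed between runs whichever the cell type, given here as a description with no test. RNF141 had a median of 44.4 FPKM over the 6 libraries of run 1, 31.5 in run 2 and 12.7 in run 3, and its highest value in run 3 (16.7) was below its lowest in run 1 (25.9). TRIM2 had a highest value of 9.47 FPKM in run 3 and a lowest of 9.86 in run 1. TRIM36 was highest in run 2, at a median of 72.1 FPKM, against 25.3 and 17.8 in runs 1 and 3. RNF20 had medians of 75.8, 92.6 and 100.9 FPKM, but its ranges overlapped widely, at 60.0 to 103.1, 54.0 to 113.5 and 34.5 to 125.7 FPKM. Its rise was not shared by both cell types. Without cuticulosomes RNF20 had 103.1, 98.2 and 64.6 FPKM in run 1 and 107.9, 71.5 and 94.0 in run 3. As both pools of a bird share a run, such differences do not enter the comparison within birds.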

How the data were processed

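RNA of pools of 30 hair cells was amplified by a full-length single-cell protocol and sequenced as 50-base single reads. Per the submitters' processing notes and the study's methods, the authors aligned reads with TopHat 1.4.1 to a draft pigeon genome, estimated FPKM with Cufflinks 1.3.0 including bias correction, and counted reads with HTSeq 0.6.1p1 for DESeq2 1.10.1. They deposited 1 table of FPKM per gene model and library. Columns of the authors' own comparison (mean level, fold change, its error, test statistic and p) were not used. No read counts were analysed here, so the depth behind a value is unknown and no counting error is given. Reads were limited to 1 place in the genome.

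Gene symbols were taken from the table's annotation, and 81 of 92 symbols were also in the RefSeq gene table of assembly bColLiv1.pat.W.v2, whose coordinates were not used. Gene models with a mean FPKM above 1 were tested with limma 3.58.1 in R 4.3.3 on log2(FPKM + 1), with the bird as block, an intensity trend and Benjamini-Hochberg adjustment over 11393 gene models, at a threshold of 0.05. The labels give the bird of each library, and the 2 libraries of a bird deviated together from their group means (median correlation across genes 0.183, range 0.121 to 0.591, against −0.0646 between birds). For single values, the signs of the 9 paired differences were flipped in all ways (exact permutation test, two-sided). Runs were compared by the limma interaction of cell type and run, and for the members with p under 0.05 also by an exact permutation of the birds among runs, added after seeing the data. The fit was tested on simulated data. Other steps ran in Python 3.11.15 (pandas 2.3.3, numpy 2.4.6), with figures drawn by matplotlib 3.10.9.

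The members and lists were chosen with earlier results of these data known. Named were members with p under 0.05, the 5 with the smallest p in each direction, the 12 highest by mean FPKM, the highest of each role list, those of 1 sign in 9 birds and those with an interaction p under 0.05. Other members are cited as examples of their lists. Alternatives were no block, run in place of the bird, no or a stricter filter, a pseudocount of 0.1, other scalings, no trend, robust variances, and each bird or run left out. Leaving out birds 435 and 450 together was chosen after seeing the data. Sequences of the genes were not analysed here. The list of E1 enzymes and ubiquitin genes is not reported here.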

Additional observations from a re-analysis of the deposited data

Results flagged for a closer look

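Within the 2 groups of 9 libraries, the highest library lay farther from the rest than Dixon's 95% critical value in 10 of 52 groups of the 26 named gene models (19.2%), where chance flags about 1 in 20 groups of normally spread values. With cuticulosomes, these were RNF6 in bird 515 (26.5 FPKM, next highest 12.2), TRIM39 in bird 515 (29.8, next 12.3), TRIM62 in bird 450 (59.9, next 22.9), and 2 genes in bird 451, RNF144B (14, next 5.16) and RNF220 (18.3, next 6.10). Without cuticulosomes, these were TRIM39 in bird 450 (4.22 FPKM, next 0.0373), RNF152 in bird 435 (25.2, next 7.73), TRIM33 in bird 458 (3.01, next 0.636), TRIM59 in bird 435 (3.56, next 1.76) and RNF220 in bird 514 (8.70, next 4.31). The flagged groups were of genes with a mean FPKM between 1.13 and 12.2. The check used FPKM without a log scale, and such values are bounded at 0 and not normally spread. The share of 1 in 20 is therefore no measure of how many flags to await here.

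The difference between the cell types varied with the sequencing run for RNF26 (limma interaction p = 0.000299; exact permutation of birds among runs, p = 0.00357), RNF144B (p = 0.0168 and 0.0571) and RNF220 (p = 0.0492 and 0.0821). None of these passed the adjusted p, which was 0.994 for each. The permutation was run only because of their interaction p, on the same differences, and is no separate support.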

How the results depend on the processing

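The number of members with an unadjusted p under 0.05 was 2 with the bird as replicate block. It was 1, RNF6, with no replicate block and with the run in place of the bird, settings in which the share of all gene models also fell, from 5.28% to 2.59% and 3.11%. It was 1 with FPKM above 1 in at least 9 libraries (1.92%, all gene models 5.38%) and 1 with a pseudocount of 0.1 (1.52%, all 5.29%). With no filter it was 4 of 100 members tested (4%, all gene models 3.8%). With single birds or runs left out it ranged from 0 to 4. It was 0 without bird 434 (all gene models 5.54%) and 1 without bird 451 (1.47%, all 5.12%). It was 4 without bird 458 (6.35%, all 5.22%) and 4 without bird 513 (6.06%, all 4.76%). Without birds 435 and 450 it was 2, RNF6 and TRIM17 (3.12%, all gene models 4.55%). No member passed the adjusted p under any of these alternatives. The number of members that varied with the run fell from 3 to 1 with a pseudocount of 0.1. Of 566 values recomputed for 26 gene models, 533 kept their direction and 33 in 12 gene models did not. With median ratio scaling RNF113A became 0.017. Upper quartile scaling, which moved the median of all genes from 0.05 to 0.19, gave 0.16 for RNF113A, 0.029 for RNF114 and 0.080 for RNF141, and a pseudocount of 0.1 gave −0.0047 for TRIM36. Gene models that kept their direction moved with this scaling too. It gave −0.052 for RNF20, −0.255 for RNF185 and −0.274 for TRIM8, against −0.24, −0.44 and −0.46 in the main fit. For TRIM62, in the other direction, it gave 1.53 against 1.404. With birds or runs left out, the log2 fold change ranged from −0.52 to 0.41 for RNF113A, −0.35 to 0.10 for RNF114, −0.24 to 0.10 for RNF141, −1.74 to 0.64 for RNF144B, −0.93 to 0.44 for RNF146, −0.74 to 0.086 for RNF19A, −0.47 to 0.73 for RNF219, −0.16 to 0.70 for RNF224, −0.93 to 2.44 for RNF26, −0.46 to 0.95 for TRIM2, −0.19 to 0.40 for TRIM36 and −0.32 to 1.01 for TRIM7. Among gene models that kept their direction, the values ranged over these fits from −0.91 to −0.10 for RNF103, −0.59 to −0.026 for RNF34, −0.60 to −0.28 for RNF185, −0.32 to −0.14 for RNF20, −0.72 to −0.19 for TRIM8, −1.53 to −0.34 for TRIM17, −1.39 to −0.30 for TRIM23, −2.32 to −1.13 for RNF6, 0.65 to 1.78 for RNF152, 0.38 to 1.81 for TRIM59, 0.95 to 1.95 for TRIM62, 0.86 to 1.75 for TRIM39, 0.47 to 0.84 for TRIM33 and 0.085 to 1.6 for RNF220. Fewer birds enter these fits; for the other changes the cause was not tested.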
